A study of Ovis aries with 7 samples.

Results

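Cyclic nucleotide phosphodiesterases are the enzymes that break down the second messengers cAMP and cGMP. They end the signals that dopamine, adenosine and nitric oxide raise in neurons of the striatum. PDE10A, which acts on both messengers, is a well known enzyme of striatal medium spiny neurons (MSNs), and its loss is followed by imaging as an early sign of Huntington's disease. The 9 genes described here, PDE10A, PDE1A, PDE1B, PDE1C, PDE2A, PDE4B, PDE4D, PDE7B and PDE8B, were taken by symbol from the 26479 features of the deposited tables. Each symbol matched 1 feature.

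The data were single-nucleus RNA counts from the striatum of 12 sheep aged 5 years. OVT73 sheep (6 animals, 3 libraries) carry a full-length human HTT cDNA with an expanded polyglutamine tract, driven by a segment of the human HTT promoter, on top of their own HTT genes. Controls (6 animals, 4 libraries) were wild-type sheep without the transgene. Nuclei of 2 sheep were pooled in each OVT73 library and in control libraries 1 and 2, whereas control libraries 4 and 6 held 1 sheep each. OVT73 sheep show no loss of striatal cells and no overt motor signs, so they model an early stage. Libraries are replicates of a group here, and nuclei are not.

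The files held 35272 barcodes, of which 33226 were kept, and 29922 of those fell into 12 cell classes named by marker genes. Libraries held between 20887378 and 70473426 unique molecules (UMIs). OVT73 library 7 was the deepest and held the most nuclei, 8378 of those kept. Between 2 and 20 barcodes were shared by any pair of libraries. MSN-like nuclei made up between 11.4% (control library 4) and 21.6% (OVT73 library 5) of a library. Levels are given as CPM, the UMIs of a gene scaled to the same fixed total of UMIs in every class and library. They are compared within a gene across classes and libraries and not between genes, since transcript lengths were not used here. As the clustering used the expression of the same nuclei, differences between classes are descriptions with no test. Genes named PDE followed by a digit were left out of the variable genes that built the clusters.

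PDE10A, which acts on both messengers, had its own highest levels in MSN-like nuclei. Its level summed over libraries was 3248 CPM in D2 MSN-like nuclei and 3126 CPM in D1 MSN-like nuclei, the classes marked by the dopamine receptors DRD2 and DRD1. D2 exceeded D1 in 5 of 7 libraries, and the mean within-library log2 difference, D1 minus D2, was -0.05 ± 0.06 (SD, n = 7), so that the order of these neighbours lay within the spread. Eccentric MSN-like nuclei, an MSN type outside the D1 and D2 classes, held 2624 CPM and were lower than D1 in 7 of 7 libraries. The next class, SST/NPY interneuron-like nuclei, was at 674 CPM, and its range over libraries (462 to 891 CPM) did not meet that of eccentric MSN-like nuclei (1878 to 3144 CPM). MSN-like nuclei supplied 96.8% of the PDE10A UMIs of the named classes and 67.8% of all UMIs of those classes.

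PDE10A was detected in 100.0% of D2 MSN-like nuclei (median 23207 UMIs a nucleus) and in 18.3% of microglia-like nuclei (median 1409 UMIs). With each nucleus thinned to 1000 UMIs the shares were 92.5% and 12.8%, and 567 of 3013 microglia-like nuclei were too shallow to enter. In glial classes PDE10A stood between 82.3 CPM (OPC-like, the oligodendrocyte precursors) and 256 CPM (astrocyte-like). The 12 listed MSN markers, all found, also had UMIs in those classes. In oligodendrocyte-like nuclei their summed level was 2038 to 2441 CPM in OVT73 and 2031 to 2297 CPM in control libraries, against 28485 to 32849 CPM in D1 MSN-like nuclei. The part of MSN RNA in the glial PDE10A values was not tested.

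PDE1B and PDE2A followed PDE10A in their order of classes at the top. PDE1B, a calmodulin-activated enzyme, was at 115 CPM in D2 and 113 CPM in D1 MSN-like nuclei, and at 61.2 CPM in eccentric MSN-like nuclei, below D1 in 7 of 7 libraries. For PDE1B the order of D2 and D1 lay within the spread. D2 was higher in 5 of 7 libraries, with a log2 difference, D1 minus D2, of -0.05 ± 0.08 (SD). PDE2A, an enzyme that cGMP stimulates, was at 231 CPM in D2, 208 CPM in D1 and 180 CPM in eccentric MSN-like nuclei. PDE2A was higher in D2 than in D1 in 7 of 7 libraries, by a small amount (log2 difference, D1 minus D2, -0.17 ± 0.05, SD). Both genes were near 0 in oligodendrocyte-like nuclei, with 75 UMIs of PDE1B and 97 of PDE2A among 31779867.

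PDE1A and PDE1C, the other calmodulin-activated members, had their highest level outside MSNs. MSN-like nuclei supplied 8.11% of the PDE1A UMIs of the named classes but 91.5% of the PDE1C UMIs. PDE1A reached 6987 CPM in oligodendrocyte-like nuclei, the myelin-forming cells, and 6443 CPM in SST/NPY interneuron-like nuclei, and these neighbours did not differ beyond their spread (oligodendrocyte-like higher in 4 of 7 libraries). Far below these, PV/Th interneuron-like nuclei, held 594 CPM, and D2 MSN-like nuclei 68.9 CPM. Within MSNs PDE1A was higher in D1 than in D2 in 7 of 7 libraries, with a log2 difference of 1.73 ± 0.79 (SD). PDE1C was highest in SST/NPY interneuron-like nuclei at 4644 CPM, followed by D1 MSN-like at 3895 CPM and microglia-like at 3878 CPM, whose ranges over libraries overlapped. SST/NPY interneuron-like nuclei, 108 in all, exceeded D1 in 5 of 7 libraries. D1 exceeded D2 MSN-like nuclei (3265 CPM) in 7 of 7 libraries, and eccentric MSN-like nuclei held 949 CPM. In microglia-like nuclei, the resident immune cells, 94.8% had a PDE1C UMI, against 6.6% of oligodendrocyte-like nuclei at a similar median depth (1409 and 1754 UMIs).

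**Figure D1:**
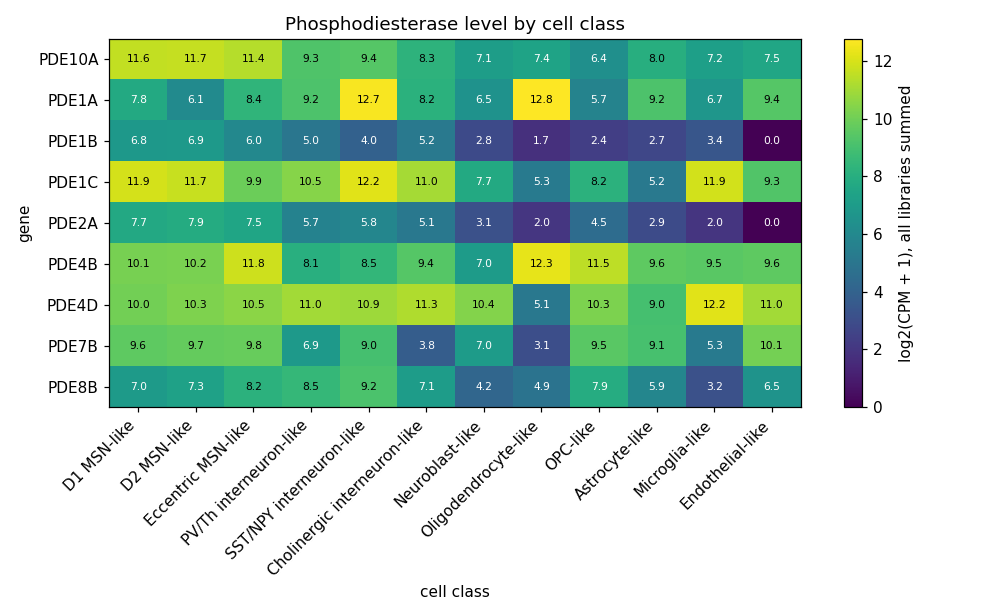
Level of each phosphodiesterase (rows) in 12 cell classes (columns), as log2(CPM + 1) of UMIs summed over 7 libraries. Colours are read along a row. PDE10A, PDE1B and PDE2A are brightest in MSN-like columns, PDE1A and PDE4B in oligodendrocyte-like nuclei, and PDE4D in microglia-like nuclei.

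Among the enzymes that act on cAMP alone, PDE4B was highest in oligodendrocyte-like nuclei at 5096 CPM, above eccentric MSN-like nuclei (3508 CPM) in 7 of 7 libraries with no overlap of the ranges. OPC-like nuclei held 2883 CPM. D1 and D2 MSN-like nuclei were at 1123 and 1183 CPM, so eccentric MSN-like nuclei exceeded both in every library, with a log2 difference, D1 minus eccentric, of -1.66 ± 0.16 (SD, n = 7). PDE4D was highest in microglia-like nuclei at 4644 CPM and at 33.3 CPM in oligodendrocyte-like nuclei. It stood at 1049 CPM in D1 and 1262 CPM in D2 MSN-like nuclei and was lower in D1 in 7 of 7 libraries. So the 2 PDE4 genes had opposite extremes in oligodendrocyte-like nuclei.

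PDE7B differed little among the MSN classes, with 881 CPM in eccentric, 855 CPM in D2 and 785 CPM in D1 MSN-like nuclei, and it held 714 CPM in OPC-like nuclei. D2 exceeded D1 in 7 of 7 libraries by a small amount (log2 difference, D1 minus D2, -0.13 ± 0.08, SD). The highest value, 1097 CPM, came from only 71 endothelial-like nuclei, which were the highest class in 3 of 7 libraries. Oligodendrocyte-like nuclei held 7.46 CPM. PDE8B was highest in SST/NPY interneuron-like nuclei at 573 CPM, then in PV/Th interneuron-like nuclei at 360 CPM and eccentric MSN-like nuclei at 294 CPM. It was lower in D1 (124 CPM) than in D2 MSN-like nuclei (158 CPM) in 7 of 7 libraries.

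Clusters within a class also differed. The oligodendrocyte-like cluster led by SLC5A11 (1573 nuclei) held 8596 CPM of PDE1A and 44 CPM of PDE10A, and the 3 OPALIN-led clusters held 6040 to 7148 CPM and 172 to 214 CPM. In the main microglia-like cluster (2861 nuclei) PDE4D was at 4813 CPM and PDE7B at 14 CPM, whereas a second microglia-like cluster (152 nuclei) had 2339 CPM and 364 CPM. A cluster with MSN genes that was left unnamed (825 nuclei) held 2307 CPM of PDE10A and 3568 CPM of PDE1C.

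The genes whose levels over the 12 classes resembled each member most were listed by Pearson's r among 4648 genes, as a description of 12 points that share libraries and depth. PDE10A was most like GNAL (r = 0.951), the G protein subunit that couples dopamine and adenosine receptors to adenylyl cyclase in striatum, then ECPAS (r = 0.941) and HOMER1 (r = 0.936). PDE2A was most like ADAMTS20 (r = 0.979) and PDE1B most like SAMD5 (r = 0.956), and both had DLGAP3, a postsynaptic scaffold protein, among their leading 3 (r = 0.966 and 0.953). PDE7B was most like PDGFC (r = 0.962), PDE4D most like EVL (r = 0.936) and PDE8B most like RASGRF1 (r = 0.926). PDE1C was most like RNF150 (r = 0.892), PDE4B most like CCDC3 (r = 0.808) and PDE1A most like NPAT (r = 0.786).

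OVT73 was then compared with control within each of the 9 classes that had at least 10 nuclei in every library, with edgeR's quasi-likelihood test on summed UMIs and Benjamini-Hochberg adjustment over all genes of the class. No member passed an adjusted p of 0.05 in any of 72 tests of a member in a class, and DESeq2 also called 0. At an unadjusted p of 0.05, edgeR gave 5 of the 72 and DESeq2 7. Over the 9 classes 0.00385% of all gene tests passed the adjusted threshold by edgeR, 0% in D1 or D2 MSN-like nuclei. By the same tool 4.96% had an unadjusted p below 0.05. No such share over all genes was computed for DESeq2, so its count has no background. Of the 72 fold changes of members 37 were above 0 and 35 below, where 47.0% of all gene tests were above 0. These p-values measure the spread between libraries, most of which pool animals.

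PDE10A RNA did not differ detectably between groups in either MSN class. These counts are of RNA in nuclei, and no protein was measured. In D1 MSN-like nuclei its normalised level was 2762, 3872, 3022 and 2725 CPM in control libraries 1, 2, 4 and 6 and 2866, 3461 and 3180 CPM in OVT73 libraries 3, 5 and 7. Control library 2 was the highest of all and the groups overlapped. The log2 fold change was 0.03 ± 0.14 (SE, adjusted p = 0.988 by edgeR). In D2 MSN-like nuclei the control libraries were at 2985, 3919, 2974 and 2752 CPM and the OVT73 libraries at 3077, 3399 and 3479 CPM, with control library 2 again the highest. The log2 fold change there was 0.07 ± 0.13 (SE, adjusted p = 0.953 by edgeR), and both values turned to -0.064 and -0.034 with no scaling beyond the total.

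PDE4D and PDE7B had the smallest exact permutation p in D2 MSN-like nuclei. By edgeR's unadjusted p the order was PDE4D (0.0107), PDE4B (0.0630) and PDE7B (0.102). Of all genes in that class, 4.67% had an unadjusted p below 0.05 by edgeR. PDE4D in D2 MSN-like nuclei was 1252, 998, 1138 and 1068 CPM in control libraries 1, 2, 4 and 6 and 1517, 1714 and 1201 CPM in OVT73 libraries 3, 5 and 7. OVT73 library 7 fell below control library 1, so the groups overlapped. The log2 fold change was 0.41 ± 0.13 (SE, adjusted p = 0.885 by edgeR), and the two-sided exact permutation p was 0.0857, where 0.0286 is the smallest that 35 splits allow. PDE7B in the same nuclei was 773, 818, 764 and 764 CPM in control and 851, 793 and 1024 CPM in OVT73 libraries, with overlap. OVT73 exceeded control by 0.19 ± 0.11 on the log2 scale (SE), with an adjusted p of 0.885 by edgeR and an exact permutation p of 0.0571. The shifts were not particular to D2. In D1 MSN-like nuclei the log2 fold changes were 0.31 ± 0.14 for PDE4D and 0.27 ± 0.12 for PDE7B (SE). Both had an adjusted p of 0.954 by edgeR, with overlap of the groups.

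PDE4B and PDE8B in D2 MSN-like nuclei had log2 fold changes of 0.26 ± 0.12 and 0.08 ± 0.10 (SE), with adjusted p of 0.885 and 0.921 by edgeR. PDE1B, at 181, 172, 98.0 and 84.1 CPM in control and 135, 131 and 83.5 CPM in OVT73 libraries, differed more within the control group than between groups. Control libraries 1 and 2, of 2 sheep each, were above control libraries 4 and 6, of 1 sheep each. OVT73 library 7, also of 2 sheep, was at 83.5 CPM, and the part of pool size was not tested. PDE1C and PDE2A were within 0.10 of 0 on the log2 scale in both MSN classes. PDE1A was decided by single libraries. In D2 MSN-like nuclei control library 4 held 199.98 CPM and the other controls 26.9 to 39.8 CPM, and without it the log2 fold change went from -0.15 to 1.00. In D1 MSN-like nuclei OVT73 library 5 held 487 CPM, and without it the value went from 0.41 to -0.39, whereas without control library 4 it was 1.02.

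**Figure D2:**
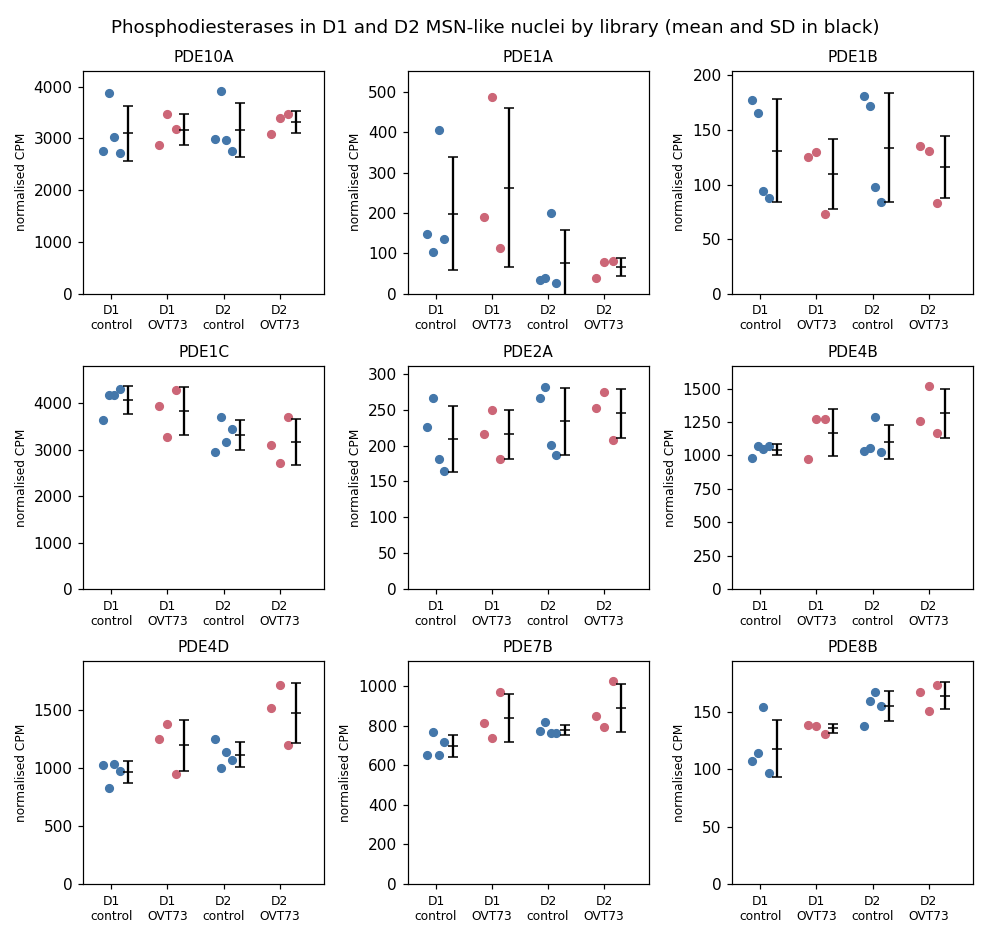
Normalised CPM of each phosphodiesterase in D1 and D2 MSN-like nuclei, with 1 point per library, 4 control (blue) and 3 OVT73 (red), and mean ± SD in black. The points of the groups overlap in every panel, and PDE10A is highest in a control library in both classes.

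Over the 9 members the median log2 fold change was 0.17 in the D1 class and 0.07 in the D2 class, beside -0.02 and -0.03 over all genes tested. The libraries of the groups did not overlap for 0 of 9 members in either class, where 5.15% (D1) and 6.03% (D2) of all genes did not overlap.

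In 2 of the 72 tests the groups did not overlap, 1 in a glial class and 1 in eccentric MSN-like nuclei. Over all genes the share not overlapping, in either direction, ran from 5.04% (PV/Th interneuron-like) to 7.81% (eccentric MSN-like) in the tested classes. So the members were not apart more often than genes at large. PDE7B in OPC-like nuclei was 676, 602, 700 and 671 CPM in control libraries 1, 2, 4 and 6 and 760, 809 and 787 CPM in OVT73 libraries 3, 5 and 7. All OVT73 libraries were above all control libraries, as 7.69% of all genes in that class were apart in one direction or the other. The log2 fold change was 0.25 ± 0.10 (SE, adjusted p = 0.704 by edgeR), and the exact permutation p of 0.0286 is the smallest possible. PDE1C in eccentric MSN-like nuclei was 977 to 1206 CPM in control and 786 to 950 CPM in OVT73 libraries, a log2 fold change of -0.29 ± 0.13 (SE, adjusted p = 0.654 by edgeR), beside 7.81% of all genes not overlapping.

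The fold changes farthest from 0 were those of PDE4B and PDE1A in 1 class. In neuroblast-like nuclei, marked by genes of migrating young neurons, PDE4B was 381, 266, 619 and 43.7 CPM in control libraries 1, 2, 4 and 6 and 58.3, 45.4 and 90.7 CPM in OVT73 libraries 3, 5 and 7. Control library 6 was the lowest of all. These values rest on few UMIs, 6 to 63 in a control library and 12 to 54 in an OVT73 library. Control library 4 had 45 such nuclei. The log2 fold change was -2.16 ± 0.77 (SE, adjusted p = 0.987 by edgeR). Without control library 6 it was -2.58, with an adjusted p of 0.00407 by edgeR. The share of all genes called in that fit is not given here, so this call has no background. PDE1A in the same nuclei was 182, 219, 351 and 14.6 CPM in control and 8.33, 30.3 and 97.4 CPM in OVT73 libraries, a log2 fold change of -1.77 ± 0.96 (SE, adjusted p = 0.987 by edgeR). It too had few UMIs, 2 to 52 in a control library and 2 to 58 in an OVT73 library. Of the 12 oligodendrocyte markers listed, 11 were found, and none of these was at 0 with all libraries summed. They summed to 439 to 1254 CPM in control and 462 to 560 CPM in OVT73 libraries in this class. Control libraries 1 and 4 were highest for those markers (1254 and 1095 CPM) and control library 6 lowest (439 CPM). In control library 6, 4 of the 11 markers had no UMI. The part of oligodendrocyte RNA in these PDE4B and PDE1A values was not tested. In PV/Th interneuron-like nuclei PDE4B was 196 to 722 CPM in control and 32.3 to 244 CPM in OVT73 libraries, with a log2 fold change of -1.35 ± 0.72 (SE, adjusted p = 0.998 by edgeR), and the markers summed to 591 to 778 and 595 to 647 CPM. PDE7B in these nuclei was 106.7 to 180.5 CPM in control and 69.1 to 123 CPM in OVT73 libraries, also with overlap, and its difference was -0.68 ± 0.22 (log2, SE) with an adjusted p of 0.998 by edgeR.

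In the classes where PDE1A, PDE4B and PDE4D were highest, the groups overlapped. PDE1A in oligodendrocyte-like nuclei was 6969 ± 1741 CPM in control (SD, n = 4) and 6715 ± 1113 CPM in OVT73 libraries (SD, n = 3). PDE4B in those nuclei was 5030 ± 642 and 5685 ± 1335 CPM, and PDE4D in microglia-like nuclei was 4397 ± 561 and 5391 ± 1202 CPM. Astrocyte-like, microglia-like and neuroblast-like nuclei left 2, 3 and 3 members under the filter on low counts, and OPC-like nuclei 1 (PDE1B), so those have no value there.

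**Figure D3:**
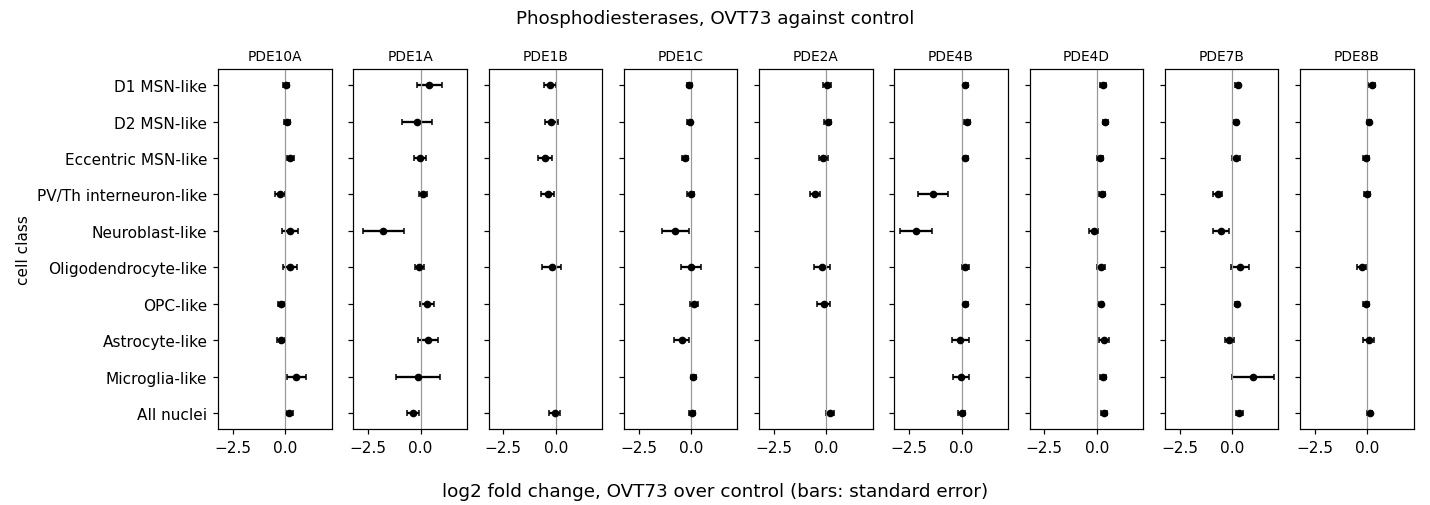
log2 fold change of OVT73 over control (points) with its standard error (bars) for 9 phosphodiesterases in 9 cell classes and in all nuclei summed. No point passed an adjusted p of 0.05, and the values farthest from 0 are those of PDE4B and PDE1A in neuroblast-like nuclei.

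With all nuclei of a library summed, 0 of 9 members passed (0% of 16091 genes). By edgeR 2 members had an unadjusted p below 0.05, beside 5.56% of genes by the same tool. DESeq2 gave 2, with no share over all genes computed. PDE7B was 414, 580, 476 and 602 CPM in control libraries 1, 2, 4 and 6 and 618, 625 and 743 CPM in OVT73 libraries 3, 5 and 7, with no overlap, where 6.49% of genes were apart. The fold change on the log2 scale was 0.35 ± 0.15 (SE), with an adjusted p of 0.817 by edgeR. PDE4D, the other of these members, was at 0.36 ± 0.14 (log2, SE, adjusted p = 0.817 by edgeR), with overlap. PDE10A was 1535 to 2579 CPM in control and 1917 to 2524 CPM in OVT73 libraries. MSN-like nuclei held 51.3% to 68.1% of a control library's UMIs and 62.2% to 69.6% of an OVT73 library's, and more cells of a class cannot be told apart from more RNA per cell in such sums.

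The difference between D2 and D1 MSN-like nuclei was compared between groups as well. PDE4D was higher in D2 by 0.30 ± 0.05 on the log2 scale in OVT73 (SD, n = 3) and by 0.21 ± 0.08 in control libraries (SD, n = 4), a difference of 0.09 (two-sided exact permutation p = 0.171, adjusted 0.9 over 9 members). PDE8B was higher in D2 by 0.27 ± 0.14 and 0.41 ± 0.23. PDE1C was lower in D2, with a mean D2 minus D1 of -0.28 in OVT73 and -0.30 in control libraries. No member's difference passed, with adjusted exact permutation p from 0.9 to 1.0.

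**Figure D4:**
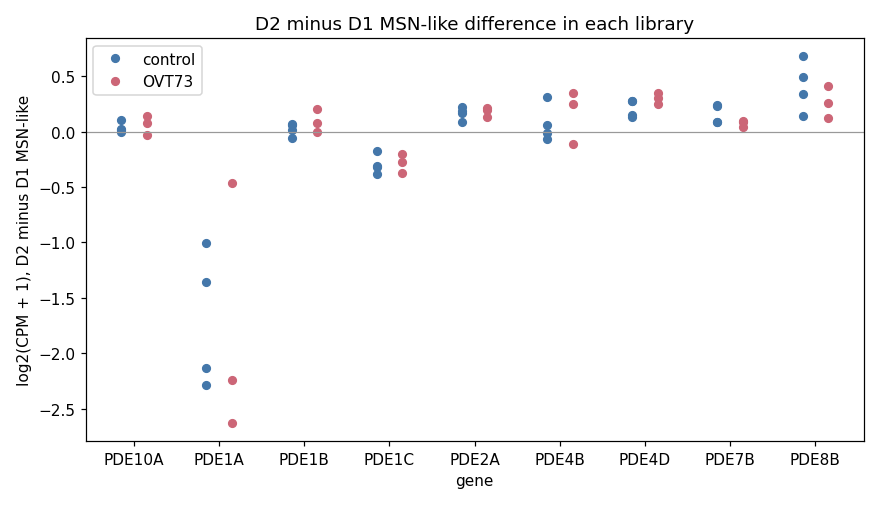
D2 minus D1 MSN-like difference in log2(CPM + 1) for each phosphodiesterase, with 1 point per library, 4 control (blue) and 3 OVT73 (red). PDE1A and PDE1C lie below 0 and PDE2A, PDE4D, PDE7B and PDE8B above 0 in all 7 libraries, in both groups.

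The genes that make the messengers and act on them gave no calls either. None of the listed other phosphodiesterases (11 tested in D1 MSN-like nuclei), adenylyl cyclases (8), guanylyl cyclases (6), cyclic nucleotide effectors (12) or anchors and calmodulin genes (6) passed in any class. The groups did not overlap for 4 of 12 effectors in D1 and 2 of 12 in D2 MSN-like nuclei. Over all genes the shares were 5.15% and 6.03%. The anchor list had 1 such gene in each class and the other lists 0. The median log2 fold change of the effectors was 0.08 in D1 and 0.20 in D2, beside -0.02 and -0.03 over all genes. No list was tested as a set. AKAP6, an anchor for protein kinase A, was the anchor gene with the smallest p in both MSN classes. It gave 0.32 ± 0.10 (log2 fold change and SE) in the D1 class and 0.30 ± 0.09 in the D2 class, with adjusted p of 0.954 and 0.885 by edgeR. RAPGEF4, a cAMP-activated exchange factor, was the effector gene with the smallest p, with 0.30 ± 0.11 in the D1 class and 0.29 ± 0.11 in the D2 class. In the other lists these were PDE11A (-0.39 ± 0.22), ADCY6 (-1.15 ± 0.50, near 2 CPM) and GUCY1B1 (0.10 ± 0.10) in D1, and PDE6C (-0.42 ± 0.26), ADCY10 (0.43 ± 0.24) and GUCY1A2 (0.21 ± 0.11) in D2 MSN-like nuclei.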

How the data were processed

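Nuclei were profiled by droplet 3' sequencing. The deposited UMI counts per gene and nucleus were made by the authors with Cell Ranger 7.0.0 and STAR 2.7.2a on the sheep Oar_rambouillet genome with a human HTT feature added. The study's sequencing summary gives a share of reads mapped to the transcriptome well above the exonic share, so intronic reads were counted, and long genes gain from them. Barcodes with 200 to 7500 genes and at most 5% of UMIs from the named mitochondrial genes were kept, and the 4% of each library with the highest doublet score was removed, since the caller's own threshold marked 0 to 341 nuclei a library. Counts were clustered (3000 variable genes, 30 components, Harmony, Louvain at resolution 1.0) with scanpy and igraph. Clusters were named from marker lists, with limits set after the marker profiles were seen. Clusters that met no rule stayed unnamed, among them one led by lymphocyte genes. UMIs were summed per library and class and tested with edgeR 4.0.16 (filterByExpr, TMM, robust quasi-likelihood fit), and DESeq2 1.42.0 was an alternative. The fits were tested on simulated data. Single values were compared by exact permutation over libraries. Genes named were all 9 members, any listed gene past the threshold, the gene of each list with the smallest p in D1 and D2 MSN-like nuclei, and the 3 genes most like each member (at least 100 CPM in a class, log2(CPM + 1)). Members and lists were chosen with earlier results of these data known. Groups came from the sample titles. Alternatives were other scaling, no filter, equal nuclei, doublets kept, other clusterings and leaving out each library.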

Additional observations from a re-analysis of the deposited data

Results flagged for a closer look

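In the 4 control libraries, 1 library lay far from the other 3 (Dixon's test) for 5 of 81 values of a member in a class or in all nuclei, and chance gives about 1 in 20. The 81 values share libraries and nuclei, so they are not independent. No share over all genes was computed for this test, so the flags cannot be read as particular to the members. All 5 were highest in control library 4, a library of 1 sheep. PDE1A was at 407 CPM there in D1 MSN-like nuclei, beside 104 to 148 CPM in the others, and at 199.98 CPM in D2 MSN-like nuclei, beside 26.9 to 39.8 CPM. PDE4B was at 1286 CPM in D2 MSN-like nuclei, beside 1022 to 1059 CPM, and at 2422 CPM in all nuclei summed, beside 1719 to 1809 CPM. PDE1C was at 829 CPM in neuroblast-like nuclei, beside 138 to 249 CPM. The oligodendrocyte markers of the list summed to 293 CPM in D2 MSN-like nuclei of control library 4 and to 154 to 240 CPM in the other control libraries. Control library 1, at 240 CPM of these markers, held 33.2 CPM of PDE1A. In D1 MSN-like nuclei the markers summed to 258 CPM in control library 4 and to 136 to 237 CPM in the other control libraries. OVT73 library 5, at 487 CPM of PDE1A in D1 MSN-like nuclei, had 141 CPM of the markers. The part of oligodendrocyte RNA in the PDE1A and PDE4B values was not tested.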

How the results depend on the processing

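Of 616 fold changes of a member recomputed under another scaling, filter, tool, number of nuclei, doublet rule or clustering, 586 kept their direction and side of the threshold and 30 changed direction, most of them near 0. None was called before or after. Of the fold changes printed above, 5 changed direction, all with no scaling beyond the total: PDE10A -0.064 and PDE2A -0.062 in D1 MSN-like nuclei, and PDE10A -0.034, PDE2A -0.045 and PDE8B -0.021 in D2 MSN-like nuclei, where the cause was not tested. Leaving out 1 library at a time changed direction in 71 of 565. In D1 MSN-like nuclei the ranges were -0.032 to 0.15 for PDE10A, -0.39 to 1.02 for PDE1A, -0.18 to 0.016 for PDE1C and -0.079 to 0.17 for PDE2A. In D2 MSN-like nuclei they were -0.44 to 1.00 for PDE1A, -0.18 to 0.036 for PDE1C and -0.031 to 0.18 for PDE2A. The count of members past the threshold in neuroblast-like nuclei ran from 0 to 1, the 1 being PDE4B (-2.58 to -1.65) without control library 6. That count too has no share over all genes beside it. The difference between groups in D2 minus D1 ran from -0.0094 to 0.079 for PDE10A, -0.73 to 0.34 for PDE1A, -0.027 to 0.060 for PDE1C, -0.011 to 0.043 for PDE2A and -0.0054 to 0.23 for PDE4B. The class with the highest CPM of each member was the same with doublets kept, under both other clusterings and without each library. In the finer clustering each cluster took the main class of most of its nuclei, so its agreement was largely fixed in advance. This also holds for its part of the 616 fold changes. By the share of nuclei with a UMI after thinning, the highest class was another for 3 of 9 members, D1 in place of D2 MSN-like for PDE10A and PDE1B and SST/NPY interneuron-like in place of oligodendrocyte-like for PDE1A. Thinning to 1000 UMIs a nucleus lowered the share of nuclei with a UMI in that class to 92.5% for PDE10A, 97.7% for PDE1A, 10.7% for PDE1B, 96.3% for PDE1C, 20.4% for PDE2A, 93.8% for PDE4B, 94.0% for PDE4D and 36.1% for PDE8B. The eccentric class was not recovered as a named class when PDE genes were allowed among the variable genes, so it has no value there. No paired analysis was made, because OVT73 and control libraries came from different sheep and the labels match none of them. With 3 and 4 libraries and unequal depth, small differences were not detectable.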
